A study of Mus musculus with 6 samples.

Results

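The CC chemokines Ccl2, Ccl3, Ccl4, Ccl6, Ccl7, Ccl8, Ccl9, Ccl11 and Ccl19 were examined in RNA sequencing of mouse articular cartilage. These 9 genes were taken by name from a table of 34709 genes, and each name matched a single gene. The data comprised 3 libraries labelled knockout (KO) and 3 labelled wildtype (WT), with an age of 18 months by the names of the data columns. Per the study's methods the mice were male, the KO line was a purchased C57BL/6J line, and littermates served in its ageing work. Whether the deletion was restricted to certain cells was not stated, and the labels named no treatment. Nothing in the labels said whether each library held 1 animal or several, so the p-values measure the spread between these libraries only. Total counts per library ranged from 52268311 to 63331135. For a gene with no count, the floor of 3 counts equals 0.0574 CPM (counts scaled by library total) in the shallowest library, a limit that covers counting error only. It assumes that each count is 1 read, which the deposited counts need not be, so it is a rough guide.

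CC chemokines are small secreted proteins named for a pair of adjacent cysteines, and they guide leukocytes that carry matching G protein-coupled receptors. The monocyte chemoattractant group holds Ccl2, Ccl7 and, by name, Ccl8, to which no receptor is assigned here. Ccl2, Ccl7 and the eotaxin Ccl11 draw monocytes and eosinophils through receptors such as Ccr2 and Ccr3. The macrophage inflammatory group (Ccl3, Ccl4, Ccl6, Ccl9) acts on monocytes, macrophages and lymphocytes, Ccl3, Ccl6 and Ccl9 through Ccr1, and Ccl19 guides dendritic cells and lymphocytes through Ccr7. In joint tissue these ligands are known as products of macrophages, synovial fibroblasts and chondrocytes under inflammatory stimulation.

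By position on GRCm38, 8 of the 9 members lie on chromosome 11 in 2 groups. Ccl2 (82035571 to 82037453), Ccl7 (82045712 to 82047525), Ccl11 (82057823 to 82062955) and Ccl8 (82115185 to 82116799) follow each other on the plus strand. Ccl9 (83572919 to 83578636), Ccl6 (83587882 to 83593087) and Ccl3 (83647844 to 83649355), on the minus strand, and Ccl4 (83662584 to 83664683), on the plus strand, form the other group. Ccl19 lies on chromosome 4 (42754525 to 42756577, minus strand). Promoters of 300 bases, from 250 before to 50 after the start in RefSeq (GRCm38.p6), were found for 5 members, namely Ccl3, Ccl6, Ccl8, Ccl9 and Ccl19. The promoters of Ccl6 (chr11:83593038-83593337, minus strand) and Ccl9 (chr11:83578587-83578886, minus strand) are shown because these neighbours were the most abundant members. In these, capitals mark runs of at least 10 bases that both share on the same strand. In the promoter of Ccl8 (chr11:82114935-82115234, plus strand), the member that differed most between KO libraries among the 7 tested, capitals mark a TATAAA match.
Ccl6: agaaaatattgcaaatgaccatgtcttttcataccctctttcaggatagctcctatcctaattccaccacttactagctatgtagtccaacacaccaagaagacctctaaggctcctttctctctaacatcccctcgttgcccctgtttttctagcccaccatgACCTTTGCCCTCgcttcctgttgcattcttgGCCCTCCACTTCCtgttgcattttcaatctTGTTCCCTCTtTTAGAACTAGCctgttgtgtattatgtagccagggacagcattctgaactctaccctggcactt
Ccl9: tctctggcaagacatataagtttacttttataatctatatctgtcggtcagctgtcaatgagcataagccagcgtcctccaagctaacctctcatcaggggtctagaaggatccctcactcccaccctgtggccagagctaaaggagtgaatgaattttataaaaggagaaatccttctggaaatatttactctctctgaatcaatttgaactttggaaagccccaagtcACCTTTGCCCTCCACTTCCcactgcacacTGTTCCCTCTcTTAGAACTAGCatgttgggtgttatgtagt
Ccl8: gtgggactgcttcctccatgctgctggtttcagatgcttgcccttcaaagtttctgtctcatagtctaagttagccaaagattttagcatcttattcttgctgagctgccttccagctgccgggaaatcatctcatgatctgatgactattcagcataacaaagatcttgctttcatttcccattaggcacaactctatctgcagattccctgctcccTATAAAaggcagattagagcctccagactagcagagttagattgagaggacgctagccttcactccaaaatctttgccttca
The runs in capitals covered 46 bases of the Ccl6 promoter and 40 bases of the Ccl9 promoter. The longest run common to both was 13 bases (gccctccacttcc). In Ccl9 it overlaps another shared run, so the capitals form a longer stretch there. Between the other 9 pairs of the 5 promoters the longest common run was 7 to 9 bases. The letters TATAAA (both strands) were found in 2 of the 5 promoters, those of Ccl8 and Ccl9, against 13.6% of 32851 promoters of this length. In Ccl8 the match lay 32 to 27 bases before the start. A loose NF-kappaB motif (GGG and CC with 5 bases of any kind between) was found in 2 of the 5 promoters (Ccl9 and Ccl19) against 50.8% of all promoters. The AP-1 letters TGANTCA were found in 1 (Ccl9, against 7.81%), and the C/EBP letters TTNNGNAA in 2 (Ccl3 and Ccl9, against 40.7%). In Ccl9 the NF-kappaB match overlapped a C/EBP match.

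The libraries were compared before the groups. KO replicates 2 and 3 were far closer to each other than any other pair. Their noise ratio, the median squared difference of scaled counts relative to Poisson sampling of single reads, was 5.74, against 23 to 82.5 in the other 14 pairs. They were averaged into 1 sample, which left 2 KO samples against 3 WT samples. KO replicate 1 stood apart from KO replicates 2 and 3 over the genes compared, with a noise ratio of 62.4 to each. Its noise ratios to WT replicates 1, 2 and 3 were lower, at 57.9, 23.8 and 37.5. It also differed from KO replicates 2 and 3 for several members, so values are given with and without it. Of the chondrocyte markers, Prg4 (402 to 1034 FPKM) and Cytl1 (471 to 2759 FPKM) were the highest (fragments per kilobase, scaled within each library). The others were lower, with Comp at 40.95 to 109.2 FPKM, Col2a1 at 12.4 to 21.3 FPKM and Sox9 at 0.865 to 2.81 FPKM. Col9a1 stayed at 0.0478 to 0.46 FPKM and Matn3 at 0 to 0.202 FPKM. The cartilage libraries also held neutrophil genes (S100a8 at 6440 to 16320 FPKM) and erythroid genes (Hbb-bs at 9546 to 45390 FPKM). In such mixed tissue, fewer cells of a type and less RNA per cell cannot be told apart.

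Ccl6 and Ccl9 dominated the family in every library. Together they made up 85.5% to 95.0% of the summed FPKM of the 9 members. Ccl6 had a mean of 126.8 FPKM over the 6 libraries (lowest 102.9, highest 161.7) and Ccl9 a mean of 33.4 FPKM (24.5 to 41.3). Neither range overlapped that of the next member. Ccl8 followed at 6.84 FPKM (2.12 to 16.1), then Ccl3 (2.698), Ccl4 (2.00), Ccl19 (1.25), Ccl2 (1.04), Ccl7 (0.468) and Ccl11 (0.292). From Ccl8 downwards each range overlapped that of its neighbour in this order. The plot of levels by library shows all values.

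**Figure D1:**
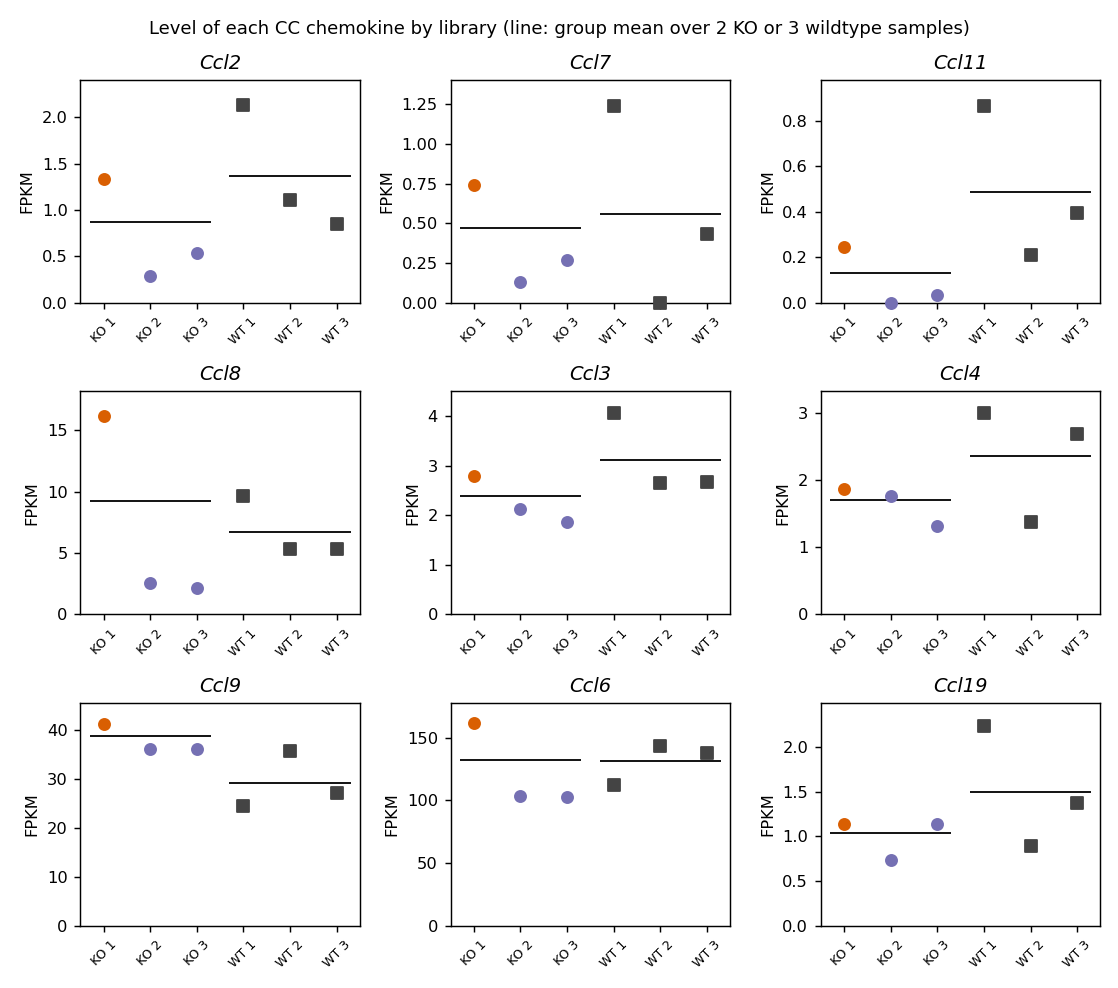
Level of each CC chemokine in FPKM (linear axis from 0) in 3 KO libraries (circles; replicate 1 in orange, replicates 2 and 3 in purple) and 3 WT libraries (squares). Lines are group means over 2 KO samples, with replicates 2 and 3 averaged, and 3 WT samples. For Ccl2, Ccl11, Ccl8, Ccl3 and Ccl6, KO replicates 2 and 3 lie under every WT library while KO replicate 1 does not.

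KO and WT cartilage were then compared to ask whether chemokine expression differed. No member passed the threshold (adjusted p-value under 0.05, edgeR quasi-likelihood test with Benjamini-Hochberg adjustment over 15373 genes). Of the 9 members, 7 reached the low-value limit of a mean of 0.5 FPKM, and 0 of these 7 were called, where 0 (0%) of all tested genes were called. At an unadjusted p-value under 0.05 the count was 0 of 7, against 13.7% of all tested genes. With the 6 libraries as labelled (3.71% of all tested genes called), with KO replicate 1 left out (2.29%) and with DESeq2 (6.07%), 0 of the 7 members were called as well. Among the 7, 4 had lower and 3 had higher values in KO, with a median log2 difference of -0.35 against -0.02 over all tested genes, of which 52.5% were lower. The median of the 7 was -0.68 with KO replicate 1 left out (-0.04 over all tested genes) and 0.07 with KO replicates 2 and 3 left out. With KO replicate 1 left out, Ccl2 and Ccl8 had an unadjusted p-value under 0.05, 2 of 7 against 20.7% of all tested genes. Ccl7 and Ccl11 lay under the limit and are given from a fit without it, in which 0 of the 9 members and 0.0626% of all genes were called.

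Ccl2, the main monocyte attractant and ligand of Ccr2, had 1.34, 0.283 and 0.535 FPKM in KO replicates 1, 2 and 3, and 2.13, 1.11 and 0.851 FPKM in WT replicates 1, 2 and 3. These levels rest on 24 to 161 counts per library. KO replicates 2 and 3 were under every WT library, and KO replicate 1 was within the WT range, so the groups overlapped. The log2 difference (KO minus WT, as throughout) was -0.58 (n = 2 and 3, SE 0.615, edgeR adjusted p 0.777). Leaving out KO replicate 1 gave -1.72 (SE 0.663, edgeR p-value 0.0390 unadjusted and 0.215 adjusted), and leaving out KO replicates 2 and 3 gave 0.07.

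Ccl8, grouped by name with the monocyte chemoattractant proteins, had the widest spread between KO libraries among the 7 tested members. It had 16.1, 2.56 and 2.12 FPKM in the KO replicates and 9.60, 5.29 and 5.34 FPKM in the WT replicates. KO replicate 1 was above every WT library and KO replicates 2 and 3 were below every one, so the KO libraries enclosed the WT range. KO replicate 1 had 6.90 times the mean level of KO replicates 2 and 3, while the WT libraries spanned 1.81 times. The log2 difference was 0.51 (SE 0.719, edgeR adjusted p 0.846). It was -1.56 (SE 0.489, edgeR p-value 0.0174 unadjusted and 0.142 adjusted) without KO replicate 1 and 1.34 (SE 0.378, edgeR adjusted p 0.414) without KO replicates 2 and 3.

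Ccl7, encoded beside Ccl2 and also a ligand of Ccr2, had 0.744, 0.132 and 0.266 FPKM in the KO replicates and 1.24, 0 and 0.430 FPKM in the WT replicates. The WT libraries covered the whole KO range. Its counts were 35, 8 and 15 in KO and 66, 0 and 22 in WT, and the log2 difference was -0.13 (SE 1.18, edgeR adjusted p 0.998 without the filter). It turned to 1.19 without WT replicate 1. Ccl11, the eotaxin that attracts eosinophils through Ccr3, had 0.247, 0 and 0.0362 FPKM in the KO replicates and 0.866, 0.209 and 0.394 FPKM in the WT replicates. KO replicates 2 and 3 were under every WT library, with 0 and 3 counts against 14 to 62 counts in WT, and KO replicate 1 (16 counts) was within the WT range. The log2 difference of Ccl11 was -1.75 (SE 0.956, edgeR p-value 0.0940 unadjusted and 0.752 adjusted without the filter). It was -0.87 without KO replicates 2 and 3 and -1.115 without WT replicate 1. No difference is given for KO replicates 2 and 3 alone, whose counts were at or under the floor of 3.

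The summed level of these 4 neighbours was 18.5, 2.97 and 2.96 FPKM in the KO replicates and 13.8, 6.61 and 7.01 FPKM in the WT replicates. Ccl8 supplied most of it in each library. Ccl12, a further ligand of Ccr2 encoded between Ccl11 and Ccl8 and listed among the other ligands, had 1.28, 0.358 and 0.346 FPKM in KO and 1.36, 1.27 and 0.701 FPKM in WT. It thus also had KO replicates 2 and 3 under every WT library with KO replicate 1 within the WT range, and its log2 difference was -0.39 (adjusted p-value 0.877 by edgeR). For Ccl12, leaving out KO replicate 1 gave -1.63, and leaving out KO replicates 2 and 3 gave 0.29. Across all tested genes, KO replicates 2 and 3 were both under every WT library in 25.8% and both above in 30.1%. Among the 7 tested members they were under in 4 (Ccl2, Ccl8, Ccl3 and Ccl6) and above in 1 (Ccl9). In 2 of the 7, Ccl2 and Ccl3, both lay outside the WT range while KO replicate 1 lay within it, against 19.6% of all tested genes.

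**Figure D2:**
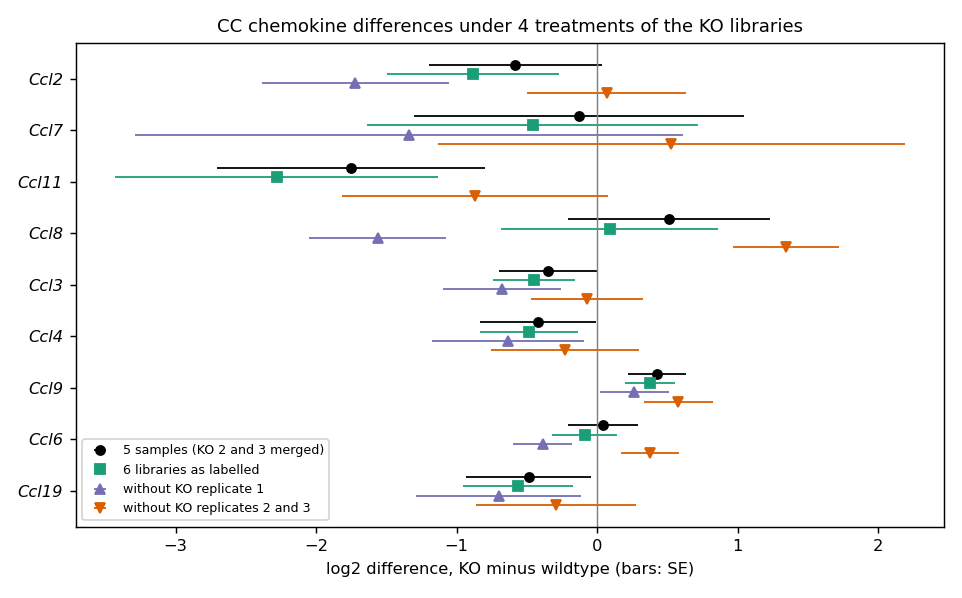
Log2 difference (KO minus WT) of each CC chemokine with its SE, in the fit of 5 samples, with the 6 libraries as labelled, without KO replicate 1 and without KO replicates 2 and 3. Ccl8 lies at 0.51 with 5 samples, at -1.56 without KO replicate 1 and at 1.34 without KO replicates 2 and 3. Ccl11 without KO replicate 1 is not plotted, since its KO counts were 0 and 3.

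Ccl3 and Ccl4, macrophage inflammatory proteins that attract monocytes and T cells, were low and close to each other. Ccl3 had 2.80, 2.13 and 1.86 FPKM in the KO replicates and 4.06, 2.65 and 2.67 FPKM in the WT replicates. Ccl4 had 1.88, 1.77 and 1.32 FPKM in KO and 3.00, 1.38 and 2.69 FPKM in WT. For both genes the groups overlapped, through KO replicate 1 for Ccl3 and through WT replicate 2 for Ccl4. The log2 difference was -0.35 (SE 0.346, edgeR adjusted p 0.756) for Ccl3 and -0.42 (SE 0.413, edgeR adjusted p 0.751) for Ccl4. Both stayed under 0 with each library, or KO replicates 2 and 3 together, left out. The range was -0.68 to -0.07 for Ccl3 and -0.68 to -0.23 for Ccl4. The ratio of Ccl3 to Ccl4 was 1.21 to 1.495 in KO and 0.993 to 1.93 in WT libraries.

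Ccl9, a Ccr1 ligand made by myeloid cells, was the single member whose KO and WT samples did not overlap. It had 41.3, 36.0 and 36.0 FPKM in the KO replicates and 24.5, 35.6 and 27.1 FPKM in the WT replicates. All KO libraries were higher, but the lowest KO library and WT replicate 2 differed by little. Samples that do not overlap and are higher in KO were found for 12.5% of all tested genes. The log2 difference was 0.43 (SE 0.206, edgeR p-value 0.0759 unadjusted and 0.435 adjusted), and 0.38 (adjusted p-value 0.268) with the 6 libraries as labelled. It ranged from 0.27 to 0.63 with each library, or KO replicates 2 and 3 together, left out.

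Ccl6, the most abundant member and also a myeloid Ccr1 ligand, had 161.7, 103.2 and 102.9 FPKM in the KO replicates and 112.3, 143.5 and 137.5 FPKM in the WT replicates. KO replicate 1 was above and KO replicates 2 and 3 were below every WT library. The log2 difference was 0.04 (SE 0.248, edgeR adjusted p 0.977), with -0.39 without KO replicate 1 and 0.38 without KO replicates 2 and 3. Within libraries, Ccl6 exceeded Ccl9 by 3.92, 2.87 and 2.86 times in KO and by 4.59, 4.03 and 5.08 times in WT. This ratio was lower in every KO library than in every WT library, but KO replicate 1 and WT replicate 2 differed by little. Neither gene passed the threshold, the ratio itself was not tested, and no share over other pairs of genes is given. Ccl6 and Ccl9 share no stretch of 75 bases between their GENCODE M21 transcripts, nor with transcripts of other genes. Ccl6 overlaps E230016K23Rik on the other strand, which had 0.478 to 0.803 FPKM. Whether the counting used the strand was not stated in the sources used here.

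Ccl19, the Ccr7 ligand, had 1.14, 0.732 and 1.14 FPKM in the KO replicates and 2.23, 0.895 and 1.37 FPKM in the WT replicates. The groups overlapped, and the log2 difference was -0.49 (SE 0.446, edgeR adjusted p 0.731). It ranged from -0.73 to -0.11 with libraries left out, the latter without WT replicate 1. Its values are uncertain because 45.3% of the 75-base stretches of its transcripts also occur in transcripts of near-identical copies (Gm2564, Ccl19-ps3, Gm12407 and Ccl19-ps1). All 4 copies had lower values in KO by their log2 difference, as Ccl19 had, and none passed the threshold. Ccl19-ps3 had 4.58, 2.10 and 2.46 FPKM in KO and 9.47, 4.62 and 4.38 FPKM in WT, whereas Gm2564 had 1.58, 1.60 and 2.31 FPKM in KO and 0.503, 4.62 and 3.78 FPKM in WT. Their log2 differences were -0.81 and -0.74, with adjusted p-values of 0.564 and 0.788 by edgeR. Gm12407 had a log2 difference of -1.90 (edgeR p-value 0.0451 unadjusted and 0.351 adjusted) and Ccl19-ps1 one of -0.36 (adjusted 0.895). CT868690.1, a related pseudogene nearby, was at -1.12 (edgeR p-value 0.0276 unadjusted and 0.291 adjusted). Counts could be split between the copies by the authors' counting. None of the other 8 members shared such a stretch with another gene.

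**Figure D3:**
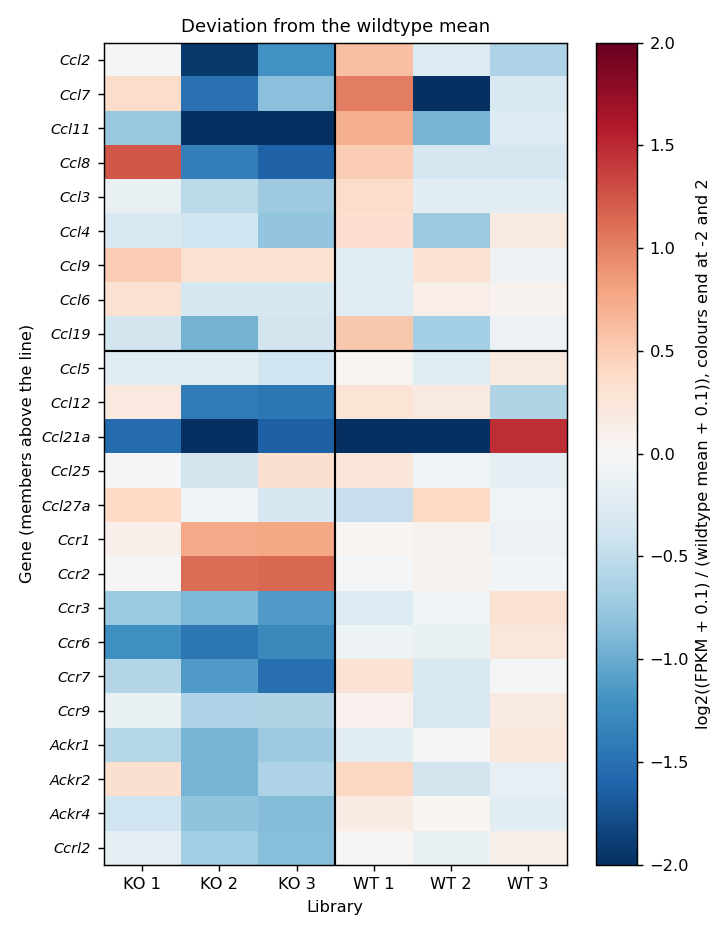
Deviation of each library from the WT mean, as log2((FPKM + 0.1) / (WT mean + 0.1)), for the 9 members (above the line) and the 15 other tested CC ligands and receptors. Colours end at -2 and 2. KO replicates 2 and 3 share their pattern, with Ccl8 at -1.37 and -1.62 and Ccr2 at 1.12 and 1.16, whereas KO replicate 1 has Ccl8 at 1.25 and Ccr2 at 0.03.

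The other genes of the pathway were taken from a list of 29 CC ligands, receptors and atypical receptors. Of these, 26 were found by name, 15 were tested, and Ccl1, Ccl21c and Ccl26 were not matched. Of these 15, 11 were lower and 4 higher in KO, with a median log2 difference of -0.40, and 0 were called. At an unadjusted p-value under 0.05, 5 were lower and 2 higher, against 6.07% and 7.63% of all tested genes. With the 6 libraries as labelled, Ccr6 was called (3.71% of all tested genes), and DESeq2 on the 5 samples called Ccr3 and Ccr6 (6.07% of the genes it adjusted).

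Among the signalling receptors, Ccr2, the receptor of Ccl2 and Ccl7 on inflammatory monocytes, had 29.2, 62.4 and 63.9 FPKM in the KO replicates and 28.2, 30.1 and 27.7 FPKM in the WT replicates. KO replicates 2 and 3 were above every WT library and KO replicate 1 was within the WT range. The log2 difference of Ccr2 was 0.69 (SE 0.272, edgeR adjusted p 0.332). Without KO replicate 1, Ccr2 rose by 1.10 on the log2 scale (adjusted p-value 0.0358 by edgeR), the single call among the 15 genes in that fit, where 2.29% of all tested genes were called and the lone KO sample was assumed to vary like the WT samples. Without KO replicates 2 and 3, Ccr2 was at 0.11 (edgeR adjusted p 0.841), so its difference rested on that merged sample. In each library the receptor exceeded its ligand, with Ccr2 at 21.8, 220.3 and 119.6 times the FPKM of Ccl2 in KO and at 13.2, 27.1 and 32.5 times in WT.

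Ccr1, the receptor of Ccl3, Ccl6 and Ccl9, had 42.4, 66.9 and 67.7 FPKM in KO and 40.3, 41.6 and 36.4 FPKM in WT. All KO libraries were above all WT libraries, as in 12.5% of all tested genes by sample, but KO replicate 1 exceeded WT replicate 2 by little. The log2 difference was 0.48 (SE 0.183, edgeR adjusted p 0.312), with 0.73 when KO replicate 1 was left out and 0.18 when KO replicates 2 and 3 were.

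Ccr3, the eotaxin receptor, had 3.25, 2.92 and 2.45 FPKM in KO and 4.55, 5.19 and 6.80 FPKM in WT. Ccr6, the receptor of Ccl20 on B and T cells, had 0.496, 0.413 and 0.475 FPKM in KO and 1.21, 1.17 and 1.54 FPKM in WT. Ccr7, the receptor of Ccl19 and Ccl21, had 2.05, 1.36 and 1.03 FPKM in KO and 3.81, 2.51 and 3.02 FPKM in WT. For all 3 receptors every KO library was under every WT library. By the 5 samples, with KO replicates 2 and 3 averaged, groups lower in KO without overlap were found for 16.0% of all tested genes. The log2 differences were -0.87 (SE 0.238), -1.43 (SE 0.308) and -0.91 (SE 0.337), with adjusted p-values of 0.199, 0.166 and 0.304 by edgeR. With the 6 libraries as labelled, Ccr6 fell by 1.47 on the log2 scale (adjusted p-value 0.0358 by edgeR). Ccr9, a receptor of gut-homing lymphocytes, had a log2 difference of -0.38 with overlapping groups, and -0.07 without KO replicates 2 and 3. Without those replicates Ccr3, Ccr6 and Ccr7 were at -0.68, -1.30 and -0.52, and without KO replicate 1 at -1.075, -1.56 and -1.42.

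The atypical receptors bind chemokines without the usual signalling and clear or transport them. Ackr1, which binds many CC and CXC chemokines on erythroid and endothelial cells, had 9.68, 7.52 and 8.75 FPKM in KO and 12.5, 14.0 and 16.97 FPKM in WT. The log2 difference was -0.68 (SE 0.209, edgeR adjusted p 0.233). Ackr4, a scavenger of Ccl19 and Ccl21, had 3.79, 2.85 and 2.72 FPKM in KO and 5.62, 5.19 and 4.30 FPKM in WT, with a log2 difference of -0.59 (SE 0.214, edgeR adjusted p 0.296). For Ackr1, Ackr4 and Ccrl2 (log2 difference -0.43) every KO library was under every WT library. By the 5 samples, with KO replicates 2 and 3 averaged, 3 of 4 were lower in KO without overlap, against 16.0% of all tested genes. With KO replicate 1 left out the differences of Ackr1, Ackr4 and Ccrl2 were -0.87, -0.89 and -0.82, and with KO replicates 2 and 3 left out they were -0.50, -0.33 and -0.12. Ackr2, a scavenger of inflammatory CC chemokines, had 1.22, 0.453 and 0.582 FPKM in KO and 1.29, 0.717 and 0.839 FPKM in WT, with a log2 difference of -0.09. It was -0.90 without KO replicate 1, 0.44 without KO replicates 2 and 3 and 0.17 without WT replicate 1.

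Among the ligands outside the 9 members, Ccl5, the T and NK cell chemokine, was the most abundant, at 8.10 to 9.03 FPKM in KO and 8.98 to 12.1 FPKM in WT. Its log2 difference was -0.26 (SE 0.200, edgeR adjusted p 0.668). Ccl25 (0.01) and Ccl27a (0.16) had small log2 differences. Ccl21a was at 3.10 FPKM in WT replicate 3 and at 0 to 0.296 FPKM in the other 5 libraries, so its log2 difference of -2.12 (SE 1.82) rested on 1 library, and it was 2.63 without that library. Its near-identical copies on chromosome 4 make it uncertain as well. The ligands Ccl17, Ccl20, Ccl21b, Ccl22, Ccl24, Ccl27b and Ccl28 and the receptors Ccr4, Ccr8, Ccr10 and Ccr1l1 were under the low-value limit.

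**Figure D4:**
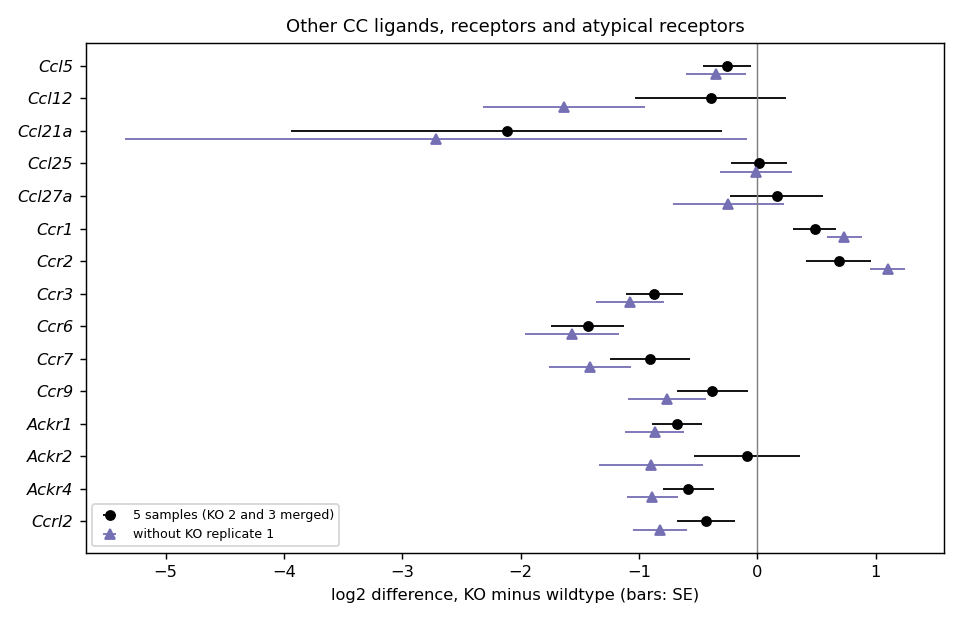
Log2 difference (KO minus WT) with its SE of the 15 tested CC ligands, receptors and atypical receptors outside the 9 members, with 5 samples and without KO replicate 1. Ccr1 and Ccr2 lie above 0 and Ccr3, Ccr6, Ccr7, Ackr1 and Ackr4 below 0, and none passed the adjusted threshold with 5 samples.

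Marker lists of other cell types moved with several of these values. The summed fibroblast and stromal markers (8 of 8 found) were at 366.1, 183.1 and 183.1 FPKM in the KO replicates and at 347.0 to 396.7 FPKM in WT. Dcn led the sum of KO replicate 1, with 183.4, 43.2 and 43.4 FPKM in KO and 93.9 to 120.9 FPKM in WT. For all 8 of these genes KO replicates 2 and 3 were under every WT library, against 25.8% of all tested genes. The same held for the members Ccl2, Ccl3, Ccl6, Ccl8 and Ccl11 and for Ccl12. KO replicate 1 was within or above the WT range for Dcn, Lum, Col3a1 and Thy1 and under it for Pdgfra, Pdgfrb, Cxcl12 and Lepr. The monocyte markers (6 of 6, Ccr2 among them) were at 387.7, 525.3 and 524.5 FPKM in KO and 254.3 to 277.2 FPKM in WT. Of these 6, Ly6c2, Ms4a6c and F13a1 were higher in every KO library than in every WT library, and Ccr2, Fcgr1 and Cx3cr1 overlapped. By the 5 samples, with KO replicates 2 and 3 averaged, groups higher in KO without overlap were found for 12.5% of all tested genes. Macrophage markers (10 of 10) summed to 379.2, 309.3 and 307.1 FPKM in KO and 370.7 to 483.5 FPKM in WT, led by C1qb and C1qa. KO replicates 2 and 3 were within the WT range for Adgre1, Csf1r and Cd68. They were under every WT library for C1qa, C1qb, C1qc, Mrc1, Cd163, Marco and Vcam1. Neutrophil markers (10 of 10) summed to 50490 to 62050 FPKM in KO and 26850 to 43510 FPKM in WT. B cell markers (8 of 8) summed to 84.5 to 133.8 FPKM in KO and 270.1 to 301.2 FPKM in WT, beside the lower Ccr6 and Ccr7. Osteoclast markers were at 1470 FPKM in WT replicate 1, the library with the highest Ccl2, Ccl3, Ccl4, Ccl7, Ccl11 and Ccl19, and at 559.3 to 752.1 FPKM in the others. Ctsk (731.4 FPKM) and Acp5 (472.7 FPKM) led that sum. Of the osteoclast genes only Mmp9 was not highest there, with 253.2 FPKM against 343.3 and 337.1 FPKM in KO replicates 2 and 3. The endothelial (38.5 FPKM), mast cell and basophil (257.3 FPKM) and stromal (396.7 FPKM) sums were also highest in WT replicate 1. The part of these cell types in the chemokine values was not tested.

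The remaining lists are given by their summed FPKM. Chondrocyte markers (10 of 10 found) were at 3965, 1199 and 1195 in KO and 995.0 to 2271 in WT, a sum led by Cytl1 and Prg4. In KO replicates 2 and 3, Col2a1, Acan, Sox9, Comp, Hapln1 and Col9a1 were under every WT library, while Prg4, Cytl1, Col9a2 and Matn3 were not. Both replicates were under every WT library in 25.8% of all tested genes. Eosinophil markers (Ccr3 among them) were at 892.5 to 1049 in KO and 543.7 to 1050 in WT. Ccr3 was lower in KO by its log2 difference, and the other 4 of these 5 genes were higher. Mast cell and basophil markers were at 150.8 to 177.4 and 104.6 to 257.3. T and NK cell markers were at 98.97 to 119.3 and 81.4 to 96.87, a sum led by Nkg7, while 9 of the 10 genes were lower in KO by their log2 difference. Dendritic cell markers were at 14.9 to 16.7 and 16.4 to 17.1, and endothelial markers at 21.4 to 24.0 and 22.7 to 38.5. Erythroid markers were at 24700 to 60410 in KO and 71320 to 108000 in WT. Skeletal muscle markers were at 142.2, 4.27 and 3.43 in the KO replicates and at 32.9 to 262.3 in WT.

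Genes with the most similar profile over the 5 samples were sought for each tested member, by the root-mean-square distance between log2 CPM values centred on their means. For Ccl8 these were Sost (distance 0.220), Wnt10b (0.295) and Tppp3 (0.303), against a spread of Ccl8 itself of 0.950. For Ccl2 they were Fmod (0.213), Angptl2 (0.219) and Pgf (0.221), against a spread of 0.760. For Ccl6, Smim5 (0.0446), Gm10069 (0.0473) and Romo1 (0.0476) were nearest, and for Ccl9, Mpc1-ps (0.0203), Glipr1 (0.0318) and A530032D15Rik (0.0352). For Ccl3 the nearest were Ptk2, Msrb3 and Foxc1 (0.0231 to 0.0522), for Ccl4 Igfbp5, Ecscr and Acot2 (0.0237 to 0.0797), and for Ccl19 Fbln1, Ghr and CR974473.1 (0.0616 to 0.101). These distances, over 5 samples and 13314 genes compared, are given as a description.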

How the data were processed

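Articular cartilage of KO and WT mice was profiled by poly(A) strand-specific RNA sequencing. Sample titles gave the group and the replicate number of each library. The knocked-out gene and 1 gene of the pathway list are not reported here. The authors deposited FPKM values, computed within each library, and whole-number estimated counts per gene. Tools named in the submitters' processing notes were cutadapt 1.9, HISAT2 2.0.4, UMI-tools, StringTie 1.3.4d, DESeq2 and edgeR. The genome build was not given in the sources used here, and the positions of all 9 members were the same as in GENCODE M21 (GRCm38). The deposited counts were used as given. Values of 4 (6596) outnumbered those of 3 (4170) and 5 (2332), so a count was not taken as a single read pair. FPKM is not scaled between libraries, and the abundant globin and neutrophil transcripts can shift it, whereas the fits used TMM scaling.

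KO replicates 2 and 3 were averaged (counts rounded). The quasi-likelihood test of edgeR 4.0.16 (R 4.3.3) was fitted to genes averaging 0.5 FPKM or more over the libraries, with Benjamini-Hochberg adjustment over all of them, after the steps had been checked on simulated data. This merging was planned from earlier results of these data. The SE of an edgeR value was derived as its absolute log2 difference divided by the square root of the quasi-likelihood F statistic. Alternatives were the 6 libraries as labelled, other scaling, no filter, a minimum of 5 FPKM, DESeq2 1.42.0, limma 3.58.1 on log2(FPKM + 1) and log2(FPKM + 0.1), a replicate block and each library left out. Named genes were the 9 members, the pathway list, marker genes, the 3 nearest profiles per tested member, and copies or overlapping genes of members. The members and lists, too, were chosen with earlier results of these data known.

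Promoters came from RefSeq, and motifs were searched on both strands.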

Additional observations from a re-analysis of the deposited data

How the results depend on the processing

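No member was called under any alternative. This says little about the members where no gene at all was called, as in the fit of 5 samples and with the replicate block. Counts over all genes are not given for the other scaling, the minimum of 5 FPKM, limma and the remaining leave-outs. Of 143 member values under the alternatives, 128 kept their direction, with adjusted p-values (where the tool gave one) from 0.142 to 1. The exceptions were as follows, and their cause was not tested. Ccl6 was at -0.088 with the 6 libraries as labelled (-0.062 also without a filter), -0.014 with both limma fits, -0.13 with the replicate block, -0.39 without KO replicate 1 and -0.08 without WT replicate 1, and at most 0.378 (0.141 without WT replicate 2). Ccl8 was at -0.064 with limma on log2(FPKM + 0.1), -0.54 with the replicate block and -1.56 without KO replicate 1, and was at 0.825 without WT replicate 1. Ccl2 was at 0.068 without KO replicates 2 and 3. Ccl7, refitted without a filter, was at 0.28 with limma on log2(FPKM + 0.1), 0.22 with the replicate block, 0.53 without KO replicates 2 and 3 and 1.19 without WT replicate 1. Over all genes, 0 were called with 5 samples, 570 with the 6 libraries as labelled, 879 with DESeq2, 352 without KO replicate 1 and 21 without a filter. The refits of Ccl7 and Ccl11 that joined no filter with another alternative, and that of the 6 libraries, were added after seeing the data.

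The number of other CC ligands and receptors called was 0 with 5 samples, 1 with the 6 libraries as labelled, 2 with DESeq2 and 0 to 1 with libraries left out. The median log2 difference of the members ranged from -0.68 to 0.0676 with libraries left out (-0.113 without WT replicate 1), and was 0.39 with a minimum of 5 FPKM, which kept Ccl6, Ccl8 and Ccl9 alone. The replicate block called 0 genes in all, with 2809 at an unadjusted p-value under 0.05. Libraries with the same number showed no shared deviation (correlations across genes of -0.145, -0.108 and -0.0581), so the numbers were not taken as pairs. Depth limits Ccl7 and Ccl11 most, with 0 to 66 counts per library.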
